A study of Mus musculus with 40 samples.

Results

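Lungs of mice given bleomycin and then saracatinib were compared with lungs of mice given saline and then vehicle, to find which injury changes remained under the drug and which were back at the healthy level. The comparison covers 10 of the 40 libraries of the series, 5 in each group. Treated bleomycin lungs came from C57BL/6 mice that received 1.5 U/kg of bleomycin by oropharyngeal instillation and then 20 mg/kg of saracatinib daily by oral gavage from day 10 to day 27. Vehicle bleomycin lungs (5 libraries) had the same injury and vehicle in place of the drug, and serve here to define the injury changes. Saracatinib-treated saline lungs (5 libraries) had the drug without injury. Saline lungs, the healthy group, had saline and vehicle. The left lung was taken on day 28, after 18 days of treatment, and all groups share the strain, the gavage and the day. The labels name mice of both sexes and give no age or sex per library. Nor do they say how the libraries map to animals, so p-values measure the spread between these samples, which may be technical. Replicate numbers here only name libraries.

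Bleomycin breaks DNA and, as a single dose, injures the alveolar epithelium. In the weeks that follow, activated fibroblasts lay down collagen, monocyte-derived macrophages gather around the scar, and type 2 cells pass through a transitional state on the way to new type 1 cells. Saracatinib inhibits Src family kinases, which carry signals from integrins and growth factor receptors in fibroblasts and leukocytes. The mouse model partly heals on its own with time, and a whole lung mixes all its cell types. In such bulk samples, fewer cells of a type and less RNA per cell cannot be told apart.

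Library totals were 12.7 to 13.9 M counts in treated bleomycin lungs, 11.4 to 17.3 M in vehicle bleomycin lungs, 8.81 to 16.3 M in saracatinib-treated saline lungs and 9.51 to 13.7 M in saline lungs. Of 55536 genes in the table, 18846 passed the low-count filter and entered the test. Calls use a Benjamini-Hochberg adjusted p under 0.05 from edgeR's quasi-likelihood test. Sftpc, Pecam1, Tcf21 and Ptprc, markers of lung epithelium, endothelium, fibroblasts and leukocytes, were present in every treated bleomycin, vehicle bleomycin and saline library. In these groups liver Alb and thymic Rag1 and Dntt stayed at or under 0.539 CPM (counts per 1000000 counts of the library). Saracatinib-treated saline libraries were not checked for these markers. The heart muscle marker Myh6 was also present, at 53.7 to 151 CPM in treated bleomycin lungs and 66.1 to 215 CPM in saline lungs. On the first principal component, with 48.4% of the variance, treated bleomycin lungs scored -36.9 to 1.9, vehicle bleomycin lungs -89.7 to -39.1 and saline lungs 20.0 to 49.7. The treated group therefore overlapped neither of the others on this axis. Treated libraries 1 and 4 lay nearest to the vehicle bleomycin lungs, and treated libraries 2 and 3 nearest to the saline lungs.

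**Figure D1:**
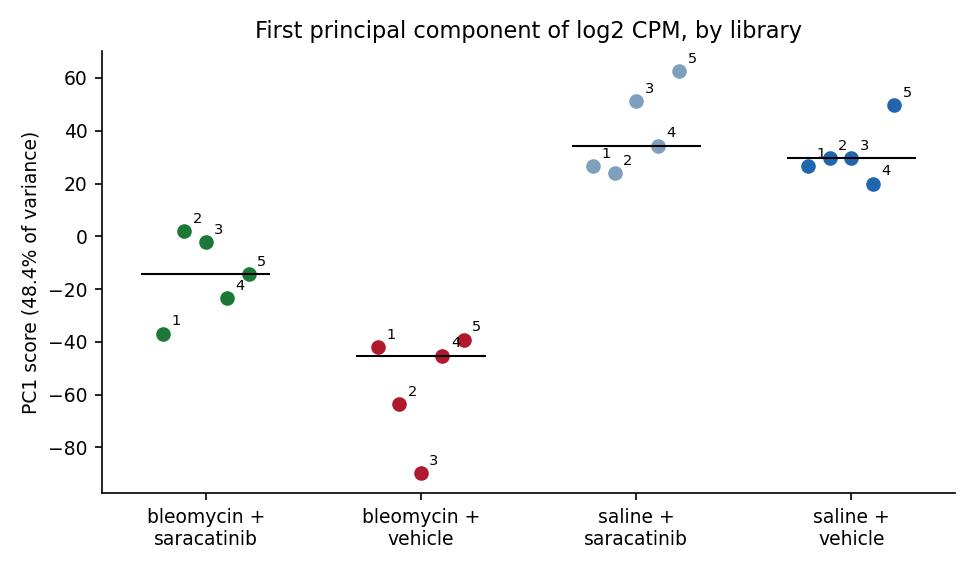
Score of each library on the first principal component of log2 CPM, by group, with replicate numbers and a bar at the median. Treated bleomycin lungs run from -36.9 to 1.9, below all saline lungs and above all vehicle bleomycin lungs.

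Between treated bleomycin lungs and saline lungs, 1737 of 18846 genes were called (9.22%), 1099 higher (5.83%) and 638 lower (3.39%). In 1218 of the called genes the 5 treated libraries did not overlap the 5 saline libraries, as in 1959 (10.4%) of all tested genes. The estimate was under 1.5-fold for 710 called genes and over 2-fold for 466. Tested against a 1.5-fold change with glmTreat, 106 genes were called (0.562%), 86 higher (0.456%) and 20 lower (0.106%). The median log2 fold change of all tested genes was -0.02. The counts of each gene list below stand beside these shares of all genes, 5.83% higher and 3.39% lower. In what follows, a difference or fold change is on the log2 scale and against saline lungs unless another group is named, ± is its standard error in the edgeR fit, and CPM values are scaled by TMM (trimmed mean of M values) library factors.

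Injury under vehicle gave 7716 calls (40.9%), 3888 higher (20.6%) and 3828 lower (20.3%), with a median log2 fold change of -0.03 over all tested genes. Of these injury genes, 1589 (20.6%) remained, meaning that treated bleomycin lungs still differed from saline lungs in the same direction. Another 3446 (44.7%) were back, meaning not called and with the 95% interval of the fold change inside 1.5-fold on both sides. The other 2681 (34.7%) were undecided, with an interval that crossed 1.5-fold. No injury gene was called in the opposite direction by edgeR, DESeq2 or limma voom, which was run throughout with quality weights for libraries. At an unadjusted p under 0.05 in the edgeR fit, 4 went in the opposite direction. Most genes back at the healthy level had moved little to begin with, since the injury estimate was under 1.5-fold for 2976 of the 3446. Among the 1524 genes (8.09%) with an injury change over 1.5-fold by glmTreat, 757 (49.7%) remained, 36 (2.36%) were back and 731 (48.0%) were undecided. The 757 had a median absolute log2 fold change of 0.98 in treated bleomycin lungs and 1.53 in vehicle bleomycin lungs, both against saline lungs. The comparisons of both bleomycin groups share the saline libraries.

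Treated and vehicle bleomycin lungs were also compared with each other. Between treated and vehicle bleomycin lungs 2643 genes were called (14.0%), 1001 higher (5.31%) and 1642 lower (8.71%). Of the 1589 remaining genes, 443 had moved toward the saline level under the drug by that test. Of the 3446 genes that were back, 1289 had done so, and 2157 were not called between treated and vehicle bleomycin lungs. The class back therefore does not by itself show a change under the drug. In saline lungs the drug gave 1 call (0.00531%), Adamtsl2, a matrix protein that restrains TGF-beta availability, named after its values were seen (log2 fold change -1.16 ± 0.16, edgeR adjusted p = 0.00841). The count of 1737 was 1009 without treated library 1 and 1075 without treated library 4, and these are the treated libraries nearest to the vehicle bleomycin lungs. Without vehicle bleomycin library 3 and saracatinib-treated saline library 5, which lay farthest from their groups and enter this comparison mainly through the shared spread, 2869 genes were called, with all 1737 among them.

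**Figure D2:**
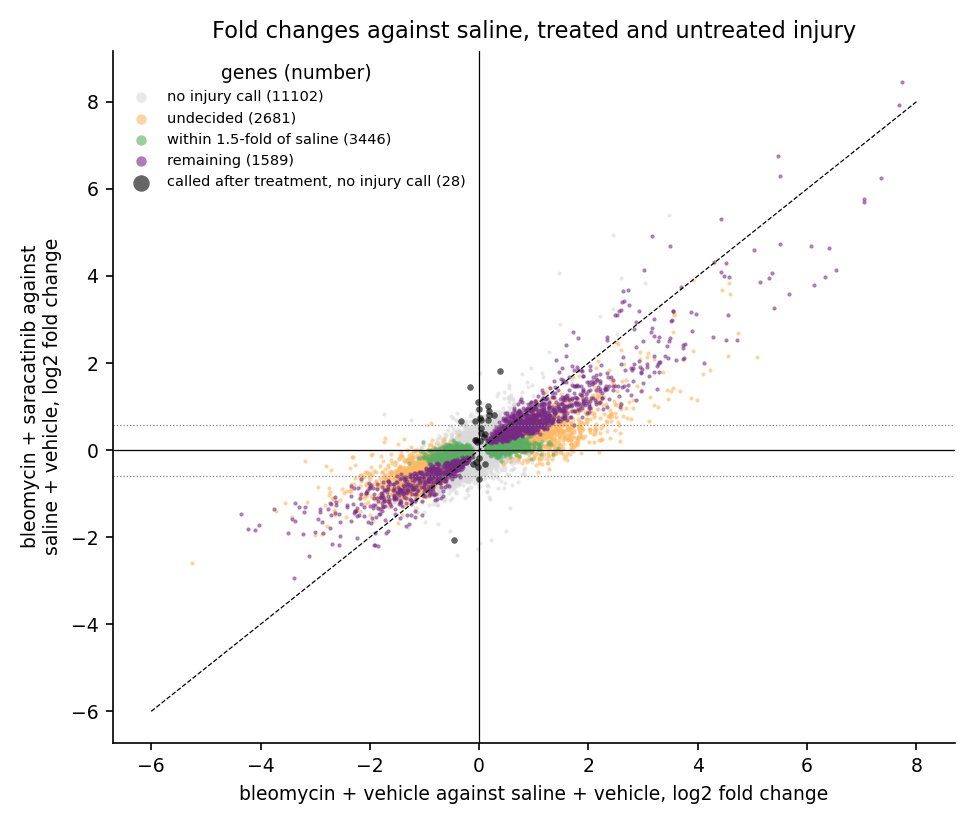
Log2 fold change against saline lungs of every tested gene, in treated bleomycin lungs (y axis) and vehicle bleomycin lungs (x axis), coloured by class, with the line of equality dashed and 1.5-fold dotted. The 1589 remaining genes lie mostly between the line of equality and the x axis, and the 3446 genes back at the saline level lie mostly near the origin. Both axes share the saline libraries.

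Collagen genes were mostly no longer called in treated lungs, while a set of other matrix proteins remained high. Among 34 collagens and collagen-processing genes, 2 were called higher and 3 lower than in saline lungs, against 5.83% and 3.39% of all tested genes. Their median log2 fold change was 0.01. In vehicle bleomycin lungs 23 had risen and 3 had fallen, with a median of 0.74. Of these, 4 remained, 13 were back and 9 were undecided, and 23 list members were lower in treated than in vehicle bleomycin lungs. Without treated library 1 or 4 or saline library 2, 1 gene was called higher and 1 lower, and without saline library 3 or 5, 1 was lower.

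Col1a2 (ENSMUSG00000029661, chromosome 6, 4504814 to 4541544, GRCm38), a chain of collagen I, was back. Its values were 1120.4, 758, 687, 1009 and 748 CPM in the treated bleomycin lungs, 1419, 1942, 2890.1, 1416 and 1489.7 CPM in the vehicle bleomycin lungs and 735, 669, 817, 690.4 and 884 CPM in the saline lungs. Treated libraries 2, 3 and 5 lay inside the saline range and treated libraries 1 and 4 above it. The difference from saline lungs was 0.19 ± 0.17 (edgeR adjusted p = 0.549), with a 95% interval of -0.17 to 0.55. Col1a1 (chromosome 11, 94936224 to 94953042), the other chain, had 1320.1, 772, 697, 1146 and 814 CPM in the treated bleomycin lungs, 1781, 2598, 4390.5, 1739.8 and 2016 CPM in the vehicle bleomycin lungs and 706, 692, 824, 701 and 905 CPM in the saline lungs. The same libraries stood above the saline range, and the difference of 0.31 ± 0.21 (edgeR adjusted p = 0.400) had an interval of -0.14 to 0.76 that crossed the 1.5-fold margin, so Col1a1 was undecided. Col3a1, the chain of collagen III, was undecided too at 0.30 ± 0.15 (edgeR adjusted p = 0.223). Against saracatinib-treated saline lungs Col3a1 was called higher (edgeR adjusted p = 0.00542), and the collagen list had 6 higher and 1 lower (median 0.21). Col7a1 of anchoring fibrils and Col5a1, which controls fibril width, were back, at 0.14 ± 0.20 and -0.08 ± 0.22 against injury changes of 1.27 and 1.13.

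The exceptions were specialised collagens and enzymes. Col11a1, a minor fibrillar chain, remained higher at 3.60 ± 0.88 (edgeR adjusted p = 0.00491), with 9.37, 0.505, 1.31, 8.96 and 1.87 CPM in treated bleomycin lungs and 0.224, 0.573, 0.309, 0.267 and 0.419 CPM in saline lungs. P4ha1, a collagen prolyl hydroxylase, remained lower at -0.47 ± 0.10 (edgeR adjusted p = 0.00538). Set against saracatinib-treated saline lungs it was at -0.14 and not called, nor was Pcolce2 (-0.52). Pcolce2, an enhancer of procollagen cleavage, was lower at -0.86 ± 0.24 (edgeR adjusted p = 0.0262) and had changed by -2.21 under vehicle. Pcolce2 lost its call without treated library 1 or 4 or saline library 2, 3 or 5 (edgeR adjusted p up to 0.0797).

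Matrix glycoproteins and proteoglycans split, with 10 higher and 4 lower of 40 tested (median 0.11), against 25 higher and 9 lower under vehicle (median 0.90). Without treated library 1 the counts were 6 higher and 2 lower, and without treated library 4 or saline library 5, 2 were lower. Tnc, which encodes tenascin C of the provisional matrix, had 269, 81.5, 115, 190.0 and 148 CPM in the treated bleomycin lungs, 330.1, 664, 1174, 383 and 368 CPM in the vehicle bleomycin lungs and 54.4, 66.5, 69.8, 45.7 and 67.9 CPM in the saline lungs. Every treated library lay above every saline library, and only treated library 2 was near them. Tnc remained higher at 1.40 ± 0.31 (edgeR adjusted p = 0.00848), although with a drug difference of -1.86 ± 0.31 from vehicle bleomycin lungs.

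Fn1, which encodes fibronectin, had 2391, 1223, 1438, 2311 and 1651 CPM in the treated bleomycin lungs, 2932, 4422, 7765, 3314 and 4041 CPM in the vehicle bleomycin lungs and 868, 984, 991, 794 and 1033 CPM in the saline lungs. The treated and saline groups did not overlap, and the difference was 0.95 ± 0.25 (edgeR adjusted p = 0.0229). The edgeR adjusted p was 0.0756 without treated library 1 and 0.0716 without treated library 4. Thbs4, a thrombospondin of tendon and scar, had 16.2, 1.08, 1.00, 13.0 and 3.20 CPM in treated bleomycin lungs, against 0.0746, 0.737, 0.849, 0.356 and 0.419 CPM in saline lungs, with libraries 1 and 4 far above the rest. It remained higher at 3.79 ± 0.87 (edgeR adjusted p = 0.00338). Fmod, a collagen-binding proteoglycan, remained at 1.79 ± 0.32 (edgeR adjusted p = 0.00201), and Cilp, a matrix protein of cartilage and fibrotic tissue, at 1.55 ± 0.38 (edgeR adjusted p = 0.0127), with an adjusted p of 0.0508 without treated library 1. Postn, which encodes periostin, was at -0.30 ± 0.17 (edgeR adjusted p = 0.288) and had not been called under vehicle either (0.08). Fbn1 and Fbln1, of elastic microfibrils, were back at 0.06 ± 0.17 and -0.22 ± 0.12.

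Proteases of the matrix list showed 6 higher and 2 lower of 31 tested. Mmp12, the macrophage elastase, was the highest of them by fold and is given with the macrophages. Mmp2, a gelatinase of fibroblasts, remained higher at 1.00 ± 0.13 (edgeR adjusted p = 0.000175), Ctsk, the collagen-degrading cathepsin K, at 1.46 ± 0.22 (edgeR adjusted p = 0.000599) and Mmp19 at 1.09 ± 0.26 (edgeR adjusted p = 0.0114). Timp1, the secreted inhibitor of these proteases, had 13.1, 4.90, 3.78, 10.2 and 13.1 CPM in the treated bleomycin lungs, 16.9, 41.2, 90.7, 26.7 and 23.8 CPM in the vehicle bleomycin lungs and 3.06, 3.52, 6.17, 4.53 and 4.50 CPM in the saline lungs. Treated libraries 1, 4 and 5 exceeded all saline libraries and treated libraries 2 and 3 lay among them. The difference was 1.05 ± 0.44 (edgeR adjusted p = 0.142), with an interval of 0.14 to 1.96, and Timp1 was undecided. Plat, tissue plasminogen activator, was back at 0.05 ± 0.25.

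In the basement membrane list the counts were 5 higher and 2 lower of 21 tested, with a median of 0.26. Lamb3, which encodes a chain of an epithelial laminin, remained higher at 1.23 ± 0.25 (edgeR adjusted p = 0.00443). Agrn, the heparan sulfate proteoglycan agrin, remained at 0.63 ± 0.11 (edgeR adjusted p = 0.00140), close to its value under vehicle (0.61). Hspg2 (perlecan) and Lama5 were back at 0.26 ± 0.12 and 0.23 ± 0.12. Leaving out treated library 1 or 4 or saline library 2 left 3 genes called higher in this list, and Col4a6 (-0.67 ± 0.20, edgeR adjusted p = 0.0381) lost its call without any 1 of 7 libraries (adjusted p up to 0.129).

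Genes of activated, pathological fibroblasts fell far under the drug and did not all reach the saline level. Of 21 tested, 6 were higher and 1 lower than in saline lungs, with a median of 0.46, against 16 higher under vehicle, with a median of 1.86. Between treated and vehicle bleomycin lungs 15 were lower, and 10 injury genes of the list were undecided. Cthrc1, a secreted marker of these cells, had 4.80, 2.16, 2.24, 3.90 and 1.72 CPM in the treated bleomycin lungs, 9.98, 14.0, 19.5, 8.40 and 9.37 CPM in the vehicle bleomycin lungs and 2.24, 2.29, 1.47, 1.33 and 1.57 CPM in the saline lungs. Treated libraries 1 and 4 lay above the saline range and the other 3 within it. The difference was 0.72 ± 0.31 (edgeR adjusted p = 0.154). Sfrp1, a secreted Wnt antagonist, remained higher at 1.28 ± 0.28 (edgeR adjusted p = 0.00787). Runx1, a transcription factor, was back at -0.01 ± 0.17. Averaged over the list, the log2 CPM of the treated libraries stood at 0.94, -0.04, 0.22, 0.75 and 0.27 relative to the saline mean, while saline libraries ran from -0.15 to 0.20 and vehicle bleomycin libraries from 1.20 to 2.39. Treated library 2 was inside the saline range.

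Markers of resting alveolar fibroblasts were lower in part. Of 20 tested, 7 were lower than in saline lungs and 1 higher (median -0.36), after 17 had fallen under vehicle (median -0.81). 10 members were higher in treated than in vehicle bleomycin lungs. Slc7a10, a neutral amino acid transporter of these cells, had 15.8, 32.4, 32.5, 17.0 and 22.5 CPM in the treated bleomycin lungs, 9.49, 2.69, 1.46, 5.30 and 4.09 CPM in the vehicle bleomycin lungs and 78.2, 75.5, 74.6, 76.6 and 119 CPM in the saline lungs. The 3 groups did not overlap, with treated lungs between the others. Slc7a10 remained lower, at -1.82 ± 0.28 (edgeR adjusted p = 0.000717), and had risen by 2.41 ± 0.33 relative to vehicle bleomycin lungs. Wnt2, an alveolar niche ligand, remained lower at -1.07 ± 0.16 (edgeR adjusted p = 0.000598), Scube2 at -0.98 ± 0.18 (edgeR adjusted p = 0.00254) and Fgfr4 at -0.93 ± 0.19 (edgeR adjusted p = 0.00393). With saracatinib-treated saline lungs as the healthy group the list had 4 lower and 1 higher (median -0.04), and Fgfr4 was at -0.29 and not called. Limch1 and Macf1 were back at -0.22 ± 0.14 and -0.26 ± 0.12. Without treated library 1 or saline library 5, 4 members were called lower.

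**Figure D3:**
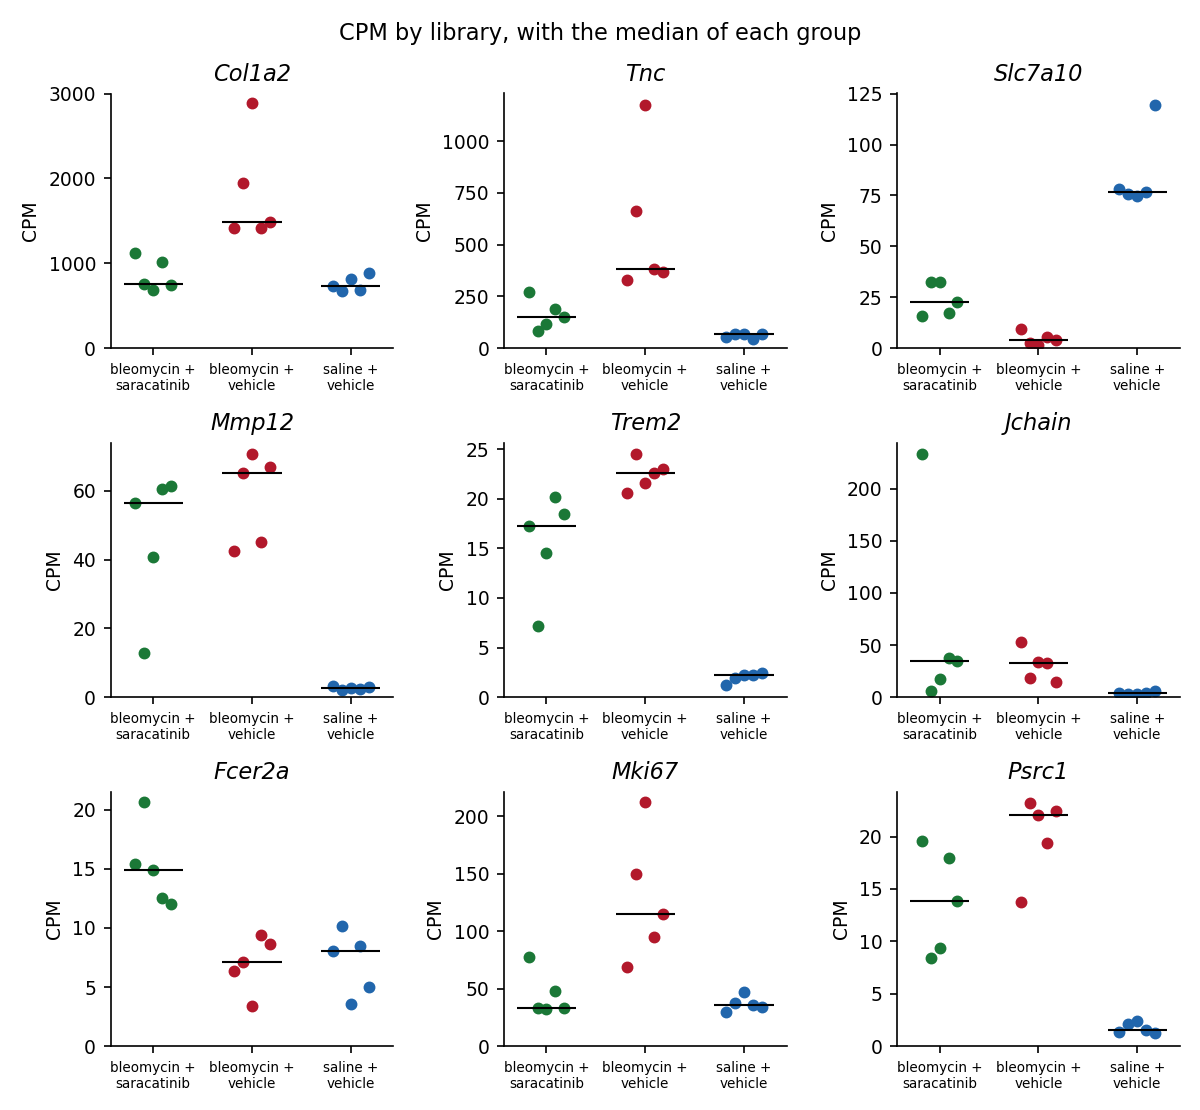
CPM of 9 genes in each library of treated bleomycin, vehicle bleomycin and saline lungs, with a line at the group median. Col1a2 and Mki67 in treated lungs overlap the saline range, Slc7a10 lies between the other groups, Mmp12, Trem2 and Psrc1 stay far above saline, and Fcer2a is highest in treated lungs.

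Smooth muscle and pericyte genes had 6 of 22 tested called, all lower, with a median of -0.49 after treatment and -0.51 under vehicle. Myh11, the smooth muscle myosin, was at -0.91 ± 0.28 (edgeR adjusted p = 0.0475), Cnn1 (calponin) at -0.995 ± 0.28 (edgeR adjusted p = 0.0302), Des (desmin) at -0.71 ± 0.20 (edgeR adjusted p = 0.0333) and Tagln (transgelin) at -0.75 ± 0.22 (edgeR adjusted p = 0.0410). Each of these 4 calls was lost in 8 or more of the 15 fits that left out 1 library. Without treated library 1 or 4, 1 member of the list was called, and 2 or 3 were without any other treated library or saline library 2, 3 or 5. Acta2, smooth muscle actin and a myofibroblast gene, was at -0.76 ± 0.26 (edgeR adjusted p = 0.0693) and not called. In 5 of 23 other settings, DESeq2 and limma voom among them, it was called lower. The pericyte genes Higd1b and Kcnj8 were back.

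In the TGF-beta and activin pathway the counts were 3 higher and 1 lower of 32 tested (median 0.12), against 19 higher and 5 lower under vehicle (median 0.46). Without treated library 2 or vehicle bleomycin library 3, 5 were higher. With saracatinib-treated saline lungs as the healthy group, 12 were higher and 0 lower (median 0.22). The ligand Tgfb1 was at 0.29 ± 0.14 (edgeR adjusted p = 0.221) and undecided. Nrros, which holds latent TGF-beta on myeloid cells, remained higher at 0.57 ± 0.13 (edgeR adjusted p = 0.00864). Tgif1, a repressor of the pathway, did so at 0.48 ± 0.10 (edgeR adjusted p = 0.00537) and the receptor Tgfbr2 at 0.35 ± 0.10 (edgeR adjusted p = 0.0270), which lost its call without treated library 1 or 4 or saline library 3 or 5 (adjusted p up to 0.0846). Pmepa1, a target gene that restrains SMAD signals, was back at 0.14 ± 0.16 after 1.12 under vehicle. Against saracatinib-treated saline lungs Pmepa1 was called higher (edgeR adjusted p = 0.00985). Itgav, an integrin chain that activates latent TGF-beta, was back at 0.30 ± 0.13 in the main fit. In 5 of 23 other settings it was called higher, among them limma voom and the fit without vehicle bleomycin library 3.

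Among Src family kinases and focal adhesion genes the counts were 2 higher and 1 lower of 24 tested, against 5.83% and 3.39% of all tested genes. Src, a kinase that the drug inhibits, had 103, 102, 95.2, 103 and 97.3 CPM in the treated bleomycin lungs, 105, 94.1, 110.0, 109 and 113 CPM in the vehicle bleomycin lungs and 94.2, 82.2, 83.6, 92.4 and 95.8 CPM in the saline lungs. Its difference was 0.16 ± 0.06 (edgeR adjusted p = 0.0902), and its interval lay within 1.5-fold, so Src was back after an injury change of 0.24 ± 0.06. DESeq2 and limma voom did call it against saline lungs. Lck, the Src family kinase of T cells, remained higher at 0.78 ± 0.18 (edgeR adjusted p = 0.00804), as did Ptk2b (Pyk2) at 0.68 ± 0.12 (edgeR adjusted p = 0.00208). Itgb3 and Itga5, integrin chains, were back at 0.10 ± 0.16 and 0.05 ± 0.17.

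Macrophage genes of the scar were among the changes that remained. Of 29 tested, 21 were called, all of them higher than in saline lungs, with a median of 1.02, against 26 higher and a median of 1.74 under vehicle. All 21 were remaining injury changes, and 17 members were lower in treated than in vehicle bleomycin lungs. Leaving out 1 library left 17 to 21 called higher. The list stood at 1.248, 0.373, 0.821, 1.387 and 1.194 in the treated libraries relative to the saline mean, lowest in library 2, and at -0.09 to 0.08 in saline libraries.

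Mmp12 had 56.4, 12.8, 40.7, 60.5 and 61.6 CPM in the treated bleomycin lungs, 42.6, 65.2, 70.7, 45.0 and 67.0 CPM in the vehicle bleomycin lungs and 3.36, 2.13, 2.55, 2.40 and 3.04 CPM in the saline lungs. Treated library 2 was lowest of its group and still above all saline libraries. Its difference of 4.10 ± 0.36 (edgeR adjusted p = 2.64e-06) compares with 4.43 ± 0.36 under vehicle, and the drug difference was not called (-0.33 ± 0.29, edgeR adjusted p = 0.485). Trem2, a lipid receptor of these macrophages, had 17.2, 7.21, 14.5, 20.2 and 18.4 CPM in the treated bleomycin lungs, 20.6, 24.5, 21.6, 22.6 and 23.0 CPM in the vehicle bleomycin lungs and 1.19, 1.88, 2.24, 2.22 and 2.41 CPM in the saline lungs. The 3 groups did not overlap, and Trem2 remained at 2.97 ± 0.24 (edgeR adjusted p = 1.36e-06). Gpnmb, a lysosomal glycoprotein, had 99.9, 32.0, 88.0, 115 and 144 CPM in the treated bleomycin lungs, 136, 161, 124, 132 and 93.2 CPM in the vehicle bleomycin lungs and 17.8, 14.7, 12.9, 15.7 and 11.4 CPM in the saline lungs, a difference of 2.71 ± 0.26 (edgeR adjusted p = 1.57e-05). Spp1, which encodes osteopontin, had 365, 120.0, 245, 438 and 412 CPM in the treated bleomycin lungs, 513, 832, 1244, 557 and 443 CPM in the vehicle bleomycin lungs and 108, 59.0, 116, 105 and 73.9 CPM in the saline lungs. All treated libraries exceeded all saline libraries, library 2 by the least. Spp1 remained at 1.77 ± 0.36 (edgeR adjusted p = 0.00480), lower than under vehicle (2.96).

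Lysosome and complement genes followed with 14 of 28 tested called, all higher (median 0.40), against 21 higher under vehicle. Ctss, cathepsin S of antigen-presenting cells, remained at 1.87 ± 0.24 (edgeR adjusted p = 0.000175), Cd68, a macrophage endosomal protein, at 1.54 ± 0.20 (edgeR adjusted p = 0.000175), Pld3, a lysosomal nuclease, at 0.97 ± 0.12 (edgeR adjusted p = 0.000101) and C3ar1, a complement receptor, at 1.37 ± 0.25 (edgeR adjusted p = 0.00200). Cfp (properdin) and Lamp1 were back at 0.19 ± 0.13 and 0.26 ± 0.13. The alveolar macrophage list went in more than 1 direction, with 4 higher and 2 lower of 17 tested. Atp6v0d2 and Cd200r4 remained higher at 1.68 ± 0.27 (edgeR adjusted p = 0.000948) and 1.43 ± 0.30 (edgeR adjusted p = 0.00491). Krt79 remained lower at -2.18 ± 0.53 (edgeR adjusted p = 0.0116), and Plet1 was back at 0.03 ± 0.13 after 0.82 under vehicle.

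Marco, a scavenger receptor of alveolar macrophages, was lower after treatment than in either other group. Its values were 1.37, 1.66, 0.386, 1.30 and 0.391 CPM in the treated bleomycin lungs, 0.736, 5.20, 4.47, 3.45 and 1.87 CPM in the vehicle bleomycin lungs and 5.59, 5.73, 2.16, 6.40 and 1.78 CPM in the saline lungs. All treated libraries lay under all saline libraries, and vehicle bleomycin lungs overlapped both. The difference from saline lungs was -2.07 ± 0.53 (edgeR adjusted p = 0.0150) and from vehicle bleomycin lungs -1.62 ± 0.53 (edgeR adjusted p = 0.0441), while the injury alone gave -0.45 ± 0.46 (edgeR adjusted p = 0.451). These are low counts. Chil3 and Siglecf, other defining genes of these cells, ran at 108 to 183 and 3.16 to 8.08 CPM in treated bleomycin lungs and at 54.2 to 167 and 3.40 to 8.28 CPM in saline lungs.

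Of 19 monocyte and neutrophil genes 2 were higher, Fn1 and the chemokine receptor Ccr2 (0.61 ± 0.16, edgeR adjusted p = 0.0176), and the monocyte gene Eno3 was back at -0.24 ± 0.12. Of 22 chemokines 3 were higher: Ccl6 at 1.47 ± 0.33 (edgeR adjusted p = 0.00875), Ccl9 at 1.47 ± 0.34 (edgeR adjusted p = 0.00963) and Cxcl16 at 0.69 ± 0.15 (edgeR adjusted p = 0.00566). Under vehicle 10 had been. The share called higher after treatment among all tested genes was 5.83%. Without treated library 3 or saline library 3, 6 chemokines were called higher, and without treated library 2, 5.

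Most T cell genes were still higher after treatment. Of 24 tested, 16 were called, all higher than in saline lungs, with a median of 0.88, against 18 and 0.82 under vehicle. Between treated and vehicle bleomycin lungs 1 member was called, and it was lower in treated lungs. Leaving out 1 library left 14 to 17 called. Foxp3, the transcription factor of regulatory T cells, had 5.03, 1.73, 4.16, 5.97 and 1.95 CPM in the treated bleomycin lungs, 4.50, 4.12, 6.16, 5.30 and 6.45 CPM in the vehicle bleomycin lungs and 0.522, 0.655, 1.39, 0.622 and 0.314 CPM in the saline lungs. All treated libraries exceeded all saline libraries, and Foxp3 remained at 2.38 ± 0.38 (edgeR adjusted p = 0.000599). Cd3e, a chain of the T cell receptor complex, had 13.9, 6.20, 7.63, 12.2 and 7.42 CPM in the treated bleomycin lungs, 8.92, 8.00, 6.70, 12.4 and 7.01 CPM in the vehicle bleomycin lungs and 4.25, 5.90, 4.24, 4.71 and 3.77 CPM in the saline lungs. It remained at 1.05 ± 0.22 (edgeR adjusted p = 0.00491). The checkpoint gene Ctla4 was at 2.16 ± 0.55 (edgeR adjusted p = 0.0120), the cytokine receptor chain Il2ra at 1.12 ± 0.24 (edgeR adjusted p = 0.00605) and Cd6, an adhesion receptor, at 1.21 ± 0.28 (edgeR adjusted p = 0.00891). Of 15 genes of cytotoxic lymphocytes 1 was called, Klrg1 (1.54 ± 0.44, edgeR adjusted p = 0.0239), which was not called without treated library 1 or 4 or saline library 3 (adjusted p up to 0.0721).

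Part of the B cell list was higher in treated bleomycin lungs than in either other group. Against saline lungs 7 of 18 were called, all higher (median 0.75), and 9 were higher than in vehicle bleomycin lungs. Under vehicle 2 were higher and 2 lower, with a median of -0.01. Fcer2a, the low-affinity IgE receptor of B cells, had 15.4, 20.7, 14.9, 12.6 and 12.0 CPM in the treated bleomycin lungs, 6.38, 7.15, 3.39, 9.37 and 8.68 CPM in the vehicle bleomycin lungs and 8.05, 10.2, 3.55, 8.45 and 5.03 CPM in the saline lungs. Every treated library exceeded every library of the other groups. Its differences were 1.10 ± 0.26 (edgeR adjusted p = 0.0114) from saline lungs and 1.11 ± 0.26 (edgeR adjusted p = 0.00885) from vehicle bleomycin lungs, with -0.01 ± 0.27 for the injury alone. Fcmr, the IgM receptor, was at 1.01 ± 0.27 (edgeR adjusted p = 0.0203) and Cd22, a B cell lectin, at 0.96 ± 0.24 (edgeR adjusted p = 0.0154). Ebf1 and Bach2, transcription factors, were back.

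The B cell count rested on several libraries. It was 3 without treated library 1 or saline library 3, and 4 without treated library 4 or saline library 5. Relative to the saline mean the list stood at 1.00, 0.94, 0.58, 0.80 and 0.39 in treated libraries and 0.33, 0.53, -0.62, 0.11 and -0.35 in saline libraries, so saline library 2 overlapped the treated range. In uninjured lungs under the drug, Fcer2a and Fcmr had estimates of 0.73 ± 0.26 and 0.87 ± 0.27 that were not called. With saracatinib-treated saline lungs as the healthy group, Fcer2a was at 0.37 and Fcmr at 0.13, and neither was called. With that group the list had 2 higher and 1 lower (median 0.28), and Cd22 was at 0.65 and not called.

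Plasma cell genes had 8 of 15 tested called, all higher, with a median of 2.71, against 9 higher under vehicle. Jchain, which joins IgA and IgM units, had 233, 5.70, 17.7, 37.7 and 34.5 CPM in the treated bleomycin lungs, 52.9, 18.5, 34.1, 33.1 and 14.2 CPM in the vehicle bleomycin lungs and 3.58, 3.19, 3.01, 3.73 and 5.44 CPM in the saline lungs. Treated library 1 stood far above the rest, and all treated libraries still exceeded all saline libraries. Jchain remained at 4.13 ± 0.77 (edgeR adjusted p = 0.00295), or 2.67 without treated library 1, where 5 genes of the list were called. Most other called members are immunoglobulin constant genes, which share sequence with close copies and are not given singly.

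Antigen presentation genes were higher in most members, with 14 of 20 tested called, all higher (median 0.67) and 12 higher under vehicle (median 0.70). H2-DMb2, a peptide-loading chain, was at 0.85 ± 0.17 (edgeR adjusted p = 0.00381), and H2-Oa, which restrains loading in B cells, at 0.95 ± 0.26 (edgeR adjusted p = 0.0233), not called without treated library 1 or saline library 3. Batf3, a transcription factor of cross-presenting dendritic cells, was at 1.09 ± 0.23 (edgeR adjusted p = 0.00535) and the migration receptor Ccr7 at 0.92 ± 0.19 (edgeR adjusted p = 0.00431). Ccr7 was at 0.42 and not called with saracatinib-treated saline lungs as the healthy group. Zbtb46, of classical dendritic cells, was back at -0.24 ± 0.14. Of 22 interferon-stimulated genes 4 were higher, or 2 without treated library 1 or 4 or saline library 1, 2 or 5, led by Oas3 (1.69 ± 0.30, edgeR adjusted p = 0.00140) and Mx1 (0.91 ± 0.22, edgeR adjusted p = 0.0114), while Oas1a and Oasl1 lost their calls in 6 and 9 of the 15 fits that left out 1 library. With saracatinib-treated saline lungs as the healthy group, 15 genes of the interferon list were higher and 0 lower (median 0.69). By limma voom against saline lungs, 7 were higher.

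Genes of the transitional alveolar epithelium remained high in part. After treatment 9 of 22 were higher than in saline lungs (median 0.45), against 20 under vehicle (median 1.2485). Of these 20, 2 were back and 9 undecided. Lcn2 (lipocalin 2), a secreted protein that binds bacterial siderophores, had 144, 78.2, 83.6, 170.1 and 162 CPM in the treated bleomycin lungs, 171, 188, 187, 219.6 and 139 CPM in the vehicle bleomycin lungs and 28.7, 28.4, 30.2, 43.3 and 15.0 CPM in the saline lungs. The treated and saline ranges were far apart, and Lcn2 remained at 2.13 ± 0.25 (edgeR adjusted p = 9.65e-05). Sprr1a, a cornified-envelope protein, remained at 2.61 ± 0.50 (edgeR adjusted p = 0.00148), Tnip3, an inhibitor of NF-kB signals, at 1.39 ± 0.29 (edgeR adjusted p = 0.00443) and Lgals3 (galectin 3), which macrophages express too, at 1.15 ± 0.16 (edgeR adjusted p = 0.000325). Krt19 and Cst3 were back at 0.14 ± 0.11 and 0.23 ± 0.11.

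Of 19 type 2 cell genes 2 were higher, Scd1 (0.99 ± 0.25, edgeR adjusted p = 0.0148), a fatty acid desaturase, and Napsa (0.68 ± 0.20, edgeR adjusted p = 0.0351), a surfactant protease. Napsa lost its call without any 1 of 7 libraries. Among all tested genes 5.83% were called higher. The surfactant gene Sftpc was not called, at 0.34 ± 0.20 (edgeR adjusted p = 0.321). Of 19 type 1 cell genes 5 were higher (median 0.50), with Gprc5a at 0.73 ± 0.17 (edgeR adjusted p = 0.00982) and the tight junction gene Cldn18 at 0.97 ± 0.29 (edgeR adjusted p = 0.0394), while Ager was at 0.72 ± 0.27 (edgeR adjusted p = 0.108). By DESeq2 and limma voom 9 and 11 type 1 genes were higher. The type 1 count by edgeR was 3 without treated library 5, 2 without treated library 1 or 4 or saline library 3 or 5, and 8 without saline library 1, where Ager was called (edgeR adjusted p = 0.0496).

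Secretory and basal airway genes had 1 higher and 5 lower of 20 tested (median -0.68). The mean level of the list ran from -0.85 to 0.65 in treated libraries and -0.94 to 0.92 in saline libraries, which overlapped. Scgb1a1, the secretoglobin of club cells, had 1736, 1977, 1864, 1993 and 2018 CPM in the treated bleomycin lungs, 1905, 1381, 1484, 2163 and 2236 CPM in the vehicle bleomycin lungs and 2749, 2819.8, 2978, 2839.8 and 4266 CPM in the saline lungs. All treated libraries lay under all saline libraries, and overlapped the vehicle bleomycin lungs. The difference was -0.71 ± 0.18 (edgeR adjusted p = 0.0157), or an adjusted p of 0.0599 without saline library 5. Scgb3a2 remained at -1.14 ± 0.29 (edgeR adjusted p = 0.0191), with an adjusted p of 0.0572 without saline library 5. Aldh1a1 and Aldh3a1, aldehyde dehydrogenases, were at -0.78 ± 0.15 (edgeR adjusted p = 0.00338) and -1.10 ± 0.28 (edgeR adjusted p = 0.0160). Without saline library 5, 2 genes of this list were called lower.

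Of 24 ciliated cell genes 1 was called lower after treatment (median -0.79), against 21 under vehicle (median -1.06), and 20 of these were undecided. The list stood at -0.82, -0.82, -0.59, -0.68 and -0.80 in treated libraries relative to the saline mean and at -0.19, -0.03, 0.08, -0.61 and 0.75 in saline libraries, a spread that put saline library 4 within the treated range. The called number was 7 without saline library 4, 6 without vehicle bleomycin library 3, and 16 without the 2 libraries farthest from their groups. At an unadjusted p under 0.05, 24 were lower. With saracatinib-treated saline lungs as the healthy group, 22 were called lower (median -1.14). How much airway a piece of lung held was not tested.

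Vessel lists differed in their counts. Capillary and venous genes had 1 higher and 2 lower of 29 tested. Ackr1, a chemokine-binding receptor of venules, remained higher at 2.43 ± 0.54 (edgeR adjusted p = 0.00356). Fibin and Vcam1 were lower at -0.90 ± 0.25 (edgeR adjusted p = 0.0306) and -0.47 ± 0.14 (edgeR adjusted p = 0.0358), and lost their calls without any 1 of 5 and 9 libraries. Vcam1 was at 0.10 and not called with saracatinib-treated saline lungs as the healthy group. Arterial and lymphatic genes had 5 higher and 1 lower of 15 tested, or 3 higher without treated library 1 or 4, with the Wnt antagonist Dkk2 at 2.601 ± 0.55 (edgeR adjusted p = 0.00297), the lymphatic genes Reln and Prox1 at 0.76 ± 0.14 (edgeR adjusted p = 0.00166) and 0.69 ± 0.18 (edgeR adjusted p = 0.0198), and the arterial connexin Gja5 lower at -1.10 ± 0.20 (edgeR adjusted p = 0.00241). Prox1 was not called without treated library 1 or 4 (adjusted p up to 0.0703). Of 13 mesothelial genes 1 was lower, Upk1b (-0.60 ± 0.13, edgeR adjusted p = 0.00622), at -0.37 and not called with saracatinib-treated saline lungs as the healthy group. Of 22 genes of striated and heart muscle 1 was lower, Actc1 (-1.04 ± 0.27, edgeR adjusted p = 0.0203), not called without treated library 4 or saline library 5. This list had a median of -0.65, with libraries from -0.95 to -0.04 in treated and -0.94 to 0.46 in saline lungs. With saracatinib-treated saline lungs as the healthy group, 11 of its genes were lower (median -1.03).

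Mitotic genes were no longer called. Of 34 mitotic genes, edgeR called 0 against saline lungs after treatment (median 0.23), as did DESeq2 and limma voom, and at an unadjusted p under 0.05 there was 1. Under vehicle 33 had risen (median 1.68), and all 34 were lower in treated than in vehicle bleomycin lungs. Still, 31 were undecided and 2 back, since the intervals were wide. Relative to the saline mean the list stood at 0.77, 0.01, -0.08, 0.30 and -0.02 in treated libraries, -0.15 to 0.23 in saline libraries and 0.67 to 2.31 in vehicle bleomycin libraries. Treated library 1 was inside the vehicle bleomycin range, library 4 above the saline range, and the other 3 within it.

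Mki67, which encodes a nuclear antigen of cycling cells, had 77.5, 33.2, 32.2, 47.8 and 33.0 CPM in the treated bleomycin lungs, 68.5, 149.6, 212, 94.7 and 115 CPM in the vehicle bleomycin lungs and 29.6, 37.3, 46.9, 35.7 and 34.3 CPM in the saline lungs. Its difference from saline lungs was 0.28 ± 0.27 (edgeR adjusted p = 0.567). Ccnb1 (cyclin B1), which drives entry into mitosis, had 3.20, 1.30, 1.39, 2.91 and 1.72 CPM in the treated bleomycin lungs, 3.68, 9.03, 13.9, 4.86 and 6.38 CPM in the vehicle bleomycin lungs and 1.19, 1.15, 1.78, 1.07 and 0.838 CPM in the saline lungs, a difference of 0.78 ± 0.37 (edgeR adjusted p = 0.199). Cdk1, its kinase, was at 0.48 ± 0.31 (edgeR adjusted p = 0.359) and Ccnb2 at 0.31 ± 0.29 (edgeR adjusted p = 0.544). Kif23, a kinesin of cytokinesis, had 12.2, 8.44, 8.64, 11.3 and 9.84 CPM in the treated bleomycin lungs, 15.9, 23.3, 29.4, 18.5 and 24.9 CPM in the vehicle bleomycin lungs and 10.7, 11.7, 12.1, 11.8 and 11.9 CPM in the saline lungs. It was back, at -0.21 ± 0.15 (edgeR adjusted p = 0.420), with the spindle checkpoint gene Mad2l1 (0.13 ± 0.22). The 27 replication genes had a median of 0.19 after treatment and 0.83 under vehicle, where 24 had risen, and 9 of these were back and 14 undecided. The helicase subunit Mcm3 and the nucleotide reductase Rrm1 were back at 0.25 ± 0.15 and 0.26 ± 0.13. Gins2, another helicase subunit, remained at 0.99 ± 0.30 (edgeR adjusted p = 0.0364) and lost that call in 7 of the 15 fits that left out 1 library, and with saracatinib-treated saline lungs as the healthy group (0.06).

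The promoters of mitotic genes carry known letters for periodic control, TTTGAA (the CHR element) and CCAAT (bound by NF-Y), and 3 are shown here because this list moved together between the groups. Windows run from 250 bases before to 50 after the start of the gene (RefSeq, GRCm38.p6), 5′ to 3′, and capitals mark TTTGAA and also CCAAT and their reverse complements.
Cdk1, chr10:69352863-69353162, minus strand: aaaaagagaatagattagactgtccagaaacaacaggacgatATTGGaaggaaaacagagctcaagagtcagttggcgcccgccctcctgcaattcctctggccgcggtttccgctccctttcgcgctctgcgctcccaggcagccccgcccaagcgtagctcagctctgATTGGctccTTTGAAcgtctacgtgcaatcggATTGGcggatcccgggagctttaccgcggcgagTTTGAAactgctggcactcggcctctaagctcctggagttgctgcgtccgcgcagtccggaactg
Ccnb2, chr9:70421505-70421804, minus strand: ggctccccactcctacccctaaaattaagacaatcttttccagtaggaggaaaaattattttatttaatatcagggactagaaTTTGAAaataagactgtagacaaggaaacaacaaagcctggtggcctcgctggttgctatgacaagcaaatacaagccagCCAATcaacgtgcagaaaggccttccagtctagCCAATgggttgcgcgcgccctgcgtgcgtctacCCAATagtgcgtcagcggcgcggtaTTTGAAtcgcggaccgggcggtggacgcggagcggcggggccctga
Kif23, chr9:61946750-61947049, minus strand: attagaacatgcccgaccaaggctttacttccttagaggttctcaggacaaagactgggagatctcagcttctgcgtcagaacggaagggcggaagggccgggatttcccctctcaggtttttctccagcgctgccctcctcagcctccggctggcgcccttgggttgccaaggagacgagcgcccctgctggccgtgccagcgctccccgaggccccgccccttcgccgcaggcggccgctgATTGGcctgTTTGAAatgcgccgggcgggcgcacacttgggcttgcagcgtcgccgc
Cdk1 and Ccnb2 each hold 2 matches to TTTGAA and 3 to CCAAT, and Kif23 holds 1 of each. Of the 34 mitotic genes 27 had a window. TTTGAA was in 20 of 27 (74.1%), against 18.1% of all 27025 windows, and CCAAT in 21 of 27 (77.8%), against 37.9%. Both were in 18 (66.7%), against 7.1%, and matches of the pair shared bases in 1 window. Kif23 and Mki67 hold both and were of different classes, back and undecided. In 16 clock gene windows the E-box CACGTG was in 5 (31.2%, against 7.2% of all) and the D-box TTATGTAA in 1 (6.2%, against 1.0%). GCGTG, the core bound by the aryl hydrocarbon receptor, was in 6 of 10 windows of its target list (60.0%, against 32.5%). A match is only a run of letters.

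**Figure D4:**
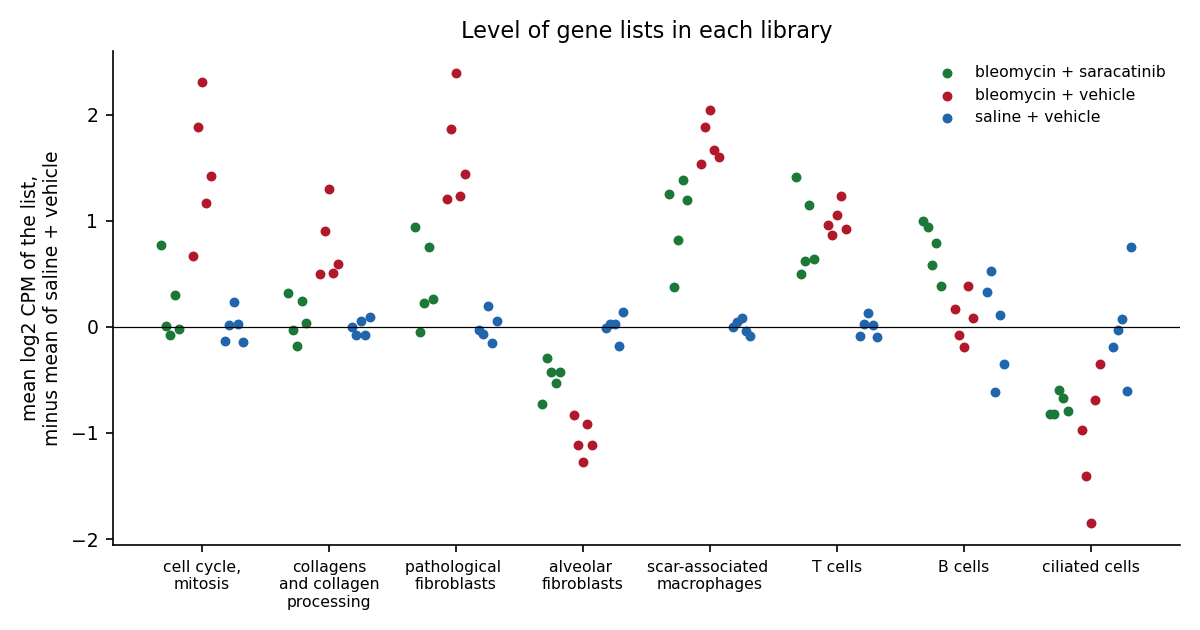
Mean log2 CPM of 8 gene lists in each library, minus the mean of the saline libraries, for treated bleomycin, vehicle bleomycin and saline lungs. Mitotic and collagen genes of most treated libraries lie near the saline libraries, while scar-associated macrophage and T cell genes lie above all of them and alveolar fibroblast genes below.

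Targets of p53, the DNA damage response factor, remained in part, with 9 higher and 1 lower of 32 tested (median 0.31), against 22 higher under vehicle (median 0.70). Psrc1, a p53-responsive spindle protein, had 19.6, 8.36, 9.33, 17.9 and 13.8 CPM in the treated bleomycin lungs, 13.7, 23.2, 22.0, 19.4 and 22.5 CPM in the vehicle bleomycin lungs and 1.34, 2.13, 2.39, 1.51 and 1.26 CPM in the saline lungs. No treated library came near the saline range, and Psrc1 remained at 2.98 ± 0.27 (edgeR adjusted p = 2.64e-06). Eda2r, a death receptor, had 13.0, 7.93, 11.9, 12.8 and 12.7 CPM in the treated bleomycin lungs, 14.2, 16.7, 16.9, 12.0 and 14.6 CPM in the vehicle bleomycin lungs and 4.33, 5.98, 4.79, 5.42 and 3.77 CPM in the saline lungs, with 1.26 ± 0.18 (edgeR adjusted p = 0.000374). Gdf15, a stress cytokine, remained at 1.59 ± 0.31 (edgeR adjusted p = 0.00311), with 1.37 ± 0.32 under vehicle. Igfbp3, which binds IGF, remained lower at -1.49 ± 0.23 (edgeR adjusted p = 0.000717). Lmnb1, a lamin, and Sulf2 were back at 0.07 ± 0.17 and 0.27 ± 0.14.

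Transcripts of mitochondrial DNA were low in 8 of 11 tested (median -0.81), against a median of -0.86 under vehicle. mt-Nd2, a subunit of complex I, had 608, 629, 708, 695 and 671 CPM in the treated bleomycin lungs, 603, 584, 539.9, 529 and 656 CPM in the vehicle bleomycin lungs and 966, 1342, 1469.7, 1112 and 1477 CPM in the saline lungs. All treated libraries lay under all saline libraries, and mt-Nd2 remained at -0.94 ± 0.16 (edgeR adjusted p = 0.00118). mt-Nd3 was at -1.63 ± 0.26 (edgeR adjusted p = 0.000756), and the transfer RNA gene mt-Tt at -2.20 ± 0.48 (edgeR adjusted p = 0.00461). The level of the list ran from -0.82 to -0.69 in treated libraries and -0.34 to 0.39 in saline libraries, and 3 members were called without saline library 5. The heart muscle and ciliated lists had medians of -0.65 and -0.79 in the same comparison, and their part in this result was not tested.

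The clock list had 3 higher and 3 lower of 19 tested. Dbp, a D-box factor with a strong daily rhythm, had 5.41, 36.6, 9.18, 28.6 and 20.9 CPM in the treated bleomycin lungs, 10.9, 30.7, 16.0, 23.7 and 11.6 CPM in the vehicle bleomycin lungs and 7.61, 3.60, 5.17, 4.71 and 7.01 CPM in the saline lungs. Treated library 1 lay in the saline range and the others above it. Dbp remained at 1.84 ± 0.47 (edgeR adjusted p = 0.0167), and uninjured lungs under the drug had 1.57 ± 0.47, not called. Nr1d2 was at 0.72 ± 0.17 (edgeR adjusted p = 0.0112) and Cry1, a repressor of the clock, at -0.62 ± 0.11 (edgeR adjusted p = 0.00129). With saracatinib-treated saline lungs as the healthy group Cry1 was at -0.10, Dbp at 0.27 and Nr1d2 at 0.11, none of them called, and edgeR called 1 gene of the list, which was lower. The sources used here give no hour of harvest. Of 10 aryl hydrocarbon receptor targets 3 were lower, Lrat (-1.35 ± 0.28, edgeR adjusted p = 0.00542), a retinol-storing enzyme, Aldh3a1 and Nqo1 (-0.84 ± 0.23, edgeR adjusted p = 0.0253), and the receptor gene Ahr was higher at 0.47 ± 0.13 (edgeR adjusted p = 0.0218). Nqo1 and Ahr lost their calls without any 1 of 5 and 3 libraries, and Ahr was at 0.24 and not called with saracatinib-treated saline lungs as the healthy group. Cyp1a1, named after its values were seen, had 0.762, 11.3, 7.48, 2.99 and 5.86 CPM in the treated bleomycin lungs, 1.15, 1.03, 0.154, 1.15 and 0.972 CPM in the vehicle bleomycin lungs and 6.04, 4.83, 5.87, 151 and 3.87 CPM in the saline lungs, with saline library 4 far above all others.

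BMP and Wnt genes had 6 higher and 6 lower of 39 tested, or 3 higher without treated library 1 or 4. Beside Wnt2, Sfrp1 and Dkk2, given above, Axin2 and Wnt5a were back at 0.08 ± 0.13 and -0.01 ± 0.13. In the IGF axis 3 of 16 were lower, Igfbp3, Igfbp5 (-0.45 ± 0.13, edgeR adjusted p = 0.0337) and Igf1r (-0.28 ± 0.08, edgeR adjusted p = 0.0268), and the count was 1 without treated library 1 or 4 or saline library 5. Igfbp4 was back at -0.01 ± 0.16. Cholesterol genes had 2 higher and 1 lower of 22 tested, with the exporter Abca1 at 0.65 ± 0.14 (edgeR adjusted p = 0.00690) and Mylip, which degrades the LDL receptor, at 0.50 ± 0.10 (edgeR adjusted p = 0.00452). Mylip was at 0.25 and not called with saracatinib-treated saline lungs as the healthy group. Sc5d was lower at -0.36 ± 0.11 (edgeR adjusted p = 0.0408) and lost its call without any 1 of 8 libraries, and was at 0.01 with saracatinib-treated saline lungs as the healthy group. The list of endoplasmic reticulum chaperones and the unfolded protein response had 1 higher and 1 lower of 23 tested, neither a chaperone. They were Trib3, a pseudokinase of the stress response, at 0.57 ± 0.16 (edgeR adjusted p = 0.0253) and Herpud1, of protein degradation from the reticulum, at -0.32 ± 0.10 (edgeR adjusted p = 0.0410), which lost their calls in 4 and 7 of the 15 fits that left out 1 library. Of 22 vasoactive and hypoxia genes 1 was lower, the natriuretic peptide receptor Npr3 (-0.96 ± 0.27, edgeR adjusted p = 0.0280), and the glycolytic genes Ldha and Pgk1 were back at 0.09 ± 0.10 and 0.10 ± 0.11 after 0.76 and 0.69 under vehicle.

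**Figure D5:**
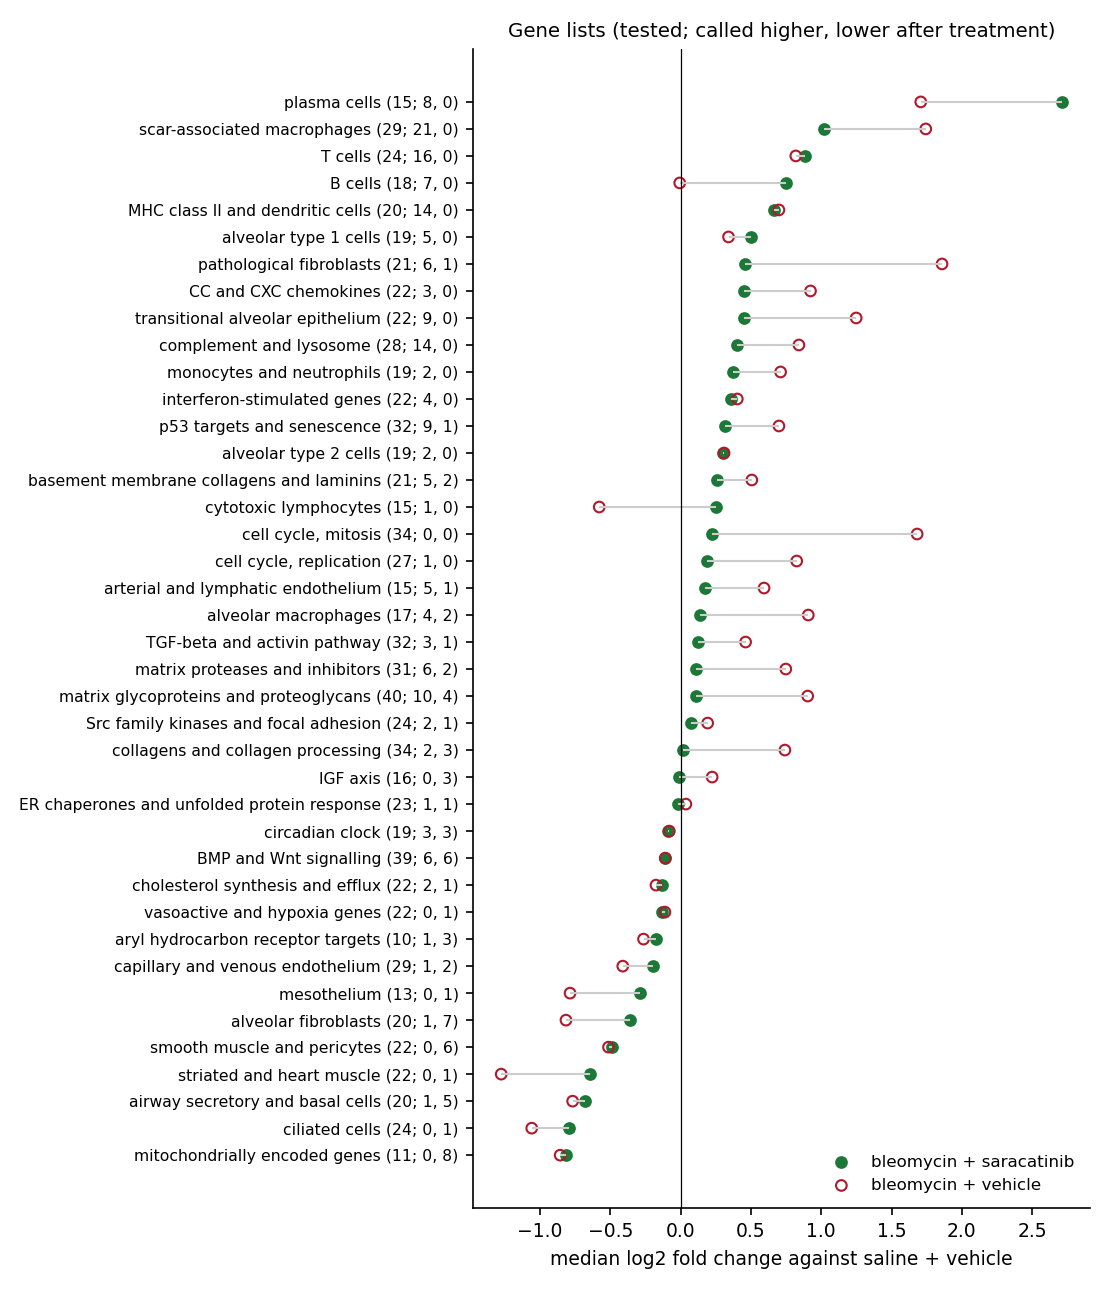
Median log2 fold change against saline lungs of the tested members of 40 gene lists, in treated bleomycin lungs (filled) and vehicle bleomycin lungs (open), with the number tested and the numbers called higher and lower after treatment. Lists of pathological fibroblasts, mitosis and collagens have medians nearer to 0 after treatment, while those of T cells and mitochondrially encoded genes hardly differ.

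Among called genes with a mean of at least 1 CPM and no overlap of the treated and saline libraries, the 10 largest increases held, beside Jchain, Mmp12, Trem2, Gpnmb, Thbs4 and Psrc1, several others. Kng2, a kininogen with the close copy Kng1, had 12.5, 1.08, 5.86, 13.2 and 3.20 CPM in the treated bleomycin lungs, 21.7, 16.4, 15.8, 18.6 and 21.1 CPM in the vehicle bleomycin lungs and 0.149, 0.409, 0.154, 0.622 and 0 CPM in the saline lungs. Treated libraries 1 and 4 were highest, and all treated libraries exceeded all saline libraries. Its fold change was 4.68 ± 0.87 (edgeR adjusted p = 0.000442). Stra6l, a receptor for the retinol-binding protein, was at 2.77 ± 0.36 (edgeR adjusted p = 0.000151) with 2.84 under vehicle, and Stac2 was at 2.63 ± 0.35 (edgeR adjusted p = 0.000155).

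Under the same limits the 10 largest decreases included Asgr1, a subunit of the asialoglycoprotein receptor, with 0.152, 0.433, 0.771, 0.306 and 0.156 CPM in the treated bleomycin lungs, 0.409, 0.114, 0.154, 0.530 and 0.208 CPM in the vehicle bleomycin lungs and 2.31, 1.97, 2.32, 1.87 and 6.18 CPM in the saline lungs. No treated library reached the saline range, and the difference was -2.95 ± 0.49 (edgeR adjusted p = 0.000599). Cd209f, a C-type lectin with close copies, was at -2.44 ± 0.44 (edgeR adjusted p = 0.00108), Capn13, a calpain, at -1.98 ± 0.43 (edgeR adjusted p = 0.00537), Fabp12, a fatty acid binding protein, at -1.92 ± 0.35 (edgeR adjusted p = 0.00153) and Bex2 at -1.88 ± 0.29 (edgeR adjusted p = 0.000599). Hspa1b, an inducible heat shock protein gene, had 39.2, 13.3, 33.4, 18.7 and 15.7 CPM in the treated bleomycin lungs, 17.9, 7.89, 8.86, 12.0 and 16.0 CPM in the vehicle bleomycin lungs and 71.2, 77.8, 103, 88.3 and 74.5 CPM in the saline lungs. All treated libraries lay under all saline libraries, and treated libraries 2 and 5 within the vehicle bleomycin range. Hspa1b was at -1.79 ± 0.34 (edgeR adjusted p = 0.00296). Its near-identical copy Hspa1a was at -1.91 ± 0.39 (edgeR adjusted p = 0.00447), and the counting may divide reads between the pair. Slc7a10, mt-Tt and Marco, which was not an injury gene, are described above and complete the group.

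Among genes back at the healthy level after a rise, Cip2a, an inhibitor of a tumour suppressor phosphatase, had 5.87, 3.32, 3.01, 4.29 and 4.30 CPM in the treated bleomycin lungs, 6.14, 15.5, 15.7, 8.13 and 9.09 CPM in the vehicle bleomycin lungs and 5.15, 3.44, 3.86, 4.09 and 3.56 CPM in the saline lungs. Treated and saline libraries overlapped, and the difference was 0.04 ± 0.25 (edgeR adjusted p = 0.943), with an interval of -0.49 to 0.57. Dtl, of a replication-coupled ubiquitin ligase, was at -0.10 ± 0.22 after 1.34 under vehicle, Fstl1, a secreted glycoprotein, at 0.14 ± 0.18 after 1.31, and Tuba1c, an alpha tubulin with close copies, at 0.21 ± 0.16 after 1.15. Each was lower than under vehicle by the drug comparison, with log2 fold changes of -1.40, -1.44, -1.17 and -0.94.

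Among genes back after a fall, Rasgrp2, an activator of Rap1 in platelets, had 106, 180.2, 160.1, 119 and 146 CPM in the treated bleomycin lungs, 87.9, 73.4, 55.3, 89.4 and 74.7 CPM in the vehicle bleomycin lungs and 172, 151, 169, 167 and 144 CPM in the saline lungs. Treated libraries 2, 3 and 5 lay within or just above the saline range and libraries 1 and 4 under it. The difference was -0.17 ± 0.14 (edgeR adjusted p = 0.499), against -1.08 ± 0.15 under vehicle. Ifi213 was at -0.17 ± 0.17 after -1.13, Syt14, a synaptotagmin, at 0.19 ± 0.18 after -1.03, H2-K2, an MHC class I gene with close copies, at -0.16 ± 0.16 after -1.03, Plcxd3 at -0.03 ± 0.26 after -1.08 and Fstl4 at -0.05 ± 0.24 after -1.02. Mettl7a1 and Mcc completed these 8, at -0.19 ± 0.16 and -0.20 ± 0.16.

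Of the called genes 148 were not injury genes, and 28 of these differed in the same direction from vehicle bleomycin lungs. With Fcer2a and Fcmr, the increases were led by Ifi214 (0.95 ± 0.27, edgeR adjusted p = 0.0317), Zfp831 (0.81 ± 0.18, edgeR adjusted p = 0.00614) and Haao (0.80 ± 0.17, edgeR adjusted p = 0.00524), an enzyme of the kynurenine pathway. Ifi214 lost its call in 6 of the 15 fits that left out 1 library. With saracatinib-treated saline lungs as the healthy group Ifi214 was at 0.28 and Zfp831 at 0.32, neither called. The decreases were led by Marco and by Smoc2, a matrix protein that binds calcium, with 9.30, 10.8, 7.79, 8.42 and 9.77 CPM in the treated bleomycin lungs, 9.82, 15.2, 23.7, 10.3 and 14.4 CPM in the vehicle bleomycin lungs and 14.2, 14.3, 15.8, 16.4 and 12.7 CPM in the saline lungs. All treated libraries lay under all saline libraries, and vehicle bleomycin libraries 1 and 4 were among the treated ones. Smoc2 was at -0.67 ± 0.18 (edgeR adjusted p = 0.0198), with an adjusted p up to 0.0559 without treated library 3 or 4 or saline library 4. Dpysl3, Tbc1d31 and Lpgat1 followed at -0.38 ± 0.11, -0.31 ± 0.10 and -0.31 ± 0.06, of which Dpysl3 and Tbc1d31 lost their calls in 9 and 10 of the 15 fits. Against saracatinib-treated saline lungs they were at -0.28 and -0.24 and Lpgat1 at 0.04, none called. That a gene missed the threshold under vehicle does not show that injury left it as it was.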

How the data were processed

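Gene counts of 20 left lung libraries of the bleomycin model were analysed, as deposited by the authors (raw counts per gene, 1 column per library). Libraries were made with a stranded kit after ribosomal RNA depletion, per the labels' protocols. STAR 2.6.1d, Picard, featureCounts of Subread 1.6.3 and edgeR, and the builds mm9 and GRCm38, are named in the submitters' processing notes without roles, and the sources used here do not state the strand setting of counting. Reads of near-identical copies and of antisense partners may therefore be split or mixed by that counting. Normalized tables and the other injury model were not analysed here.

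From the counts, R 4.3.3 with edgeR 4.0.16 was used: filterByExpr, TMM factors, 1 coefficient for each of 4 groups, and quasi-likelihood tests with Benjamini-Hochberg adjustment over 18846 genes (called under 0.05). glmTreat tested against a 1.5-fold change. An injury gene, called between vehicle bleomycin and saline lungs, was remaining when called in the same direction after treatment. It was back when not called with the 95% interval (estimate and standard error of the fit) within 1.5-fold, and undecided otherwise. Symbols came from the reference gene name table by identifier (55450 of 55536 matched), and coordinates from its GRCm38 annotation.

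Named genes were a fixed panel, the 10 largest called changes in each direction, the 8 largest back, the 5 largest seen after treatment beside no injury call, and up to 4 called and 2 back members of each of 40 lists. Mki67, Ccnb1, Ccnb2, Cdk1, Cd3e, Scgb1a1, Cyp1a1 and Adamtsl2 were added after their values were seen. Of the genes this rule names, 2 are not reported here. The largest changes were taken among genes of at least 1 CPM over the 10 libraries with no overlap of the groups (for called changes), leaving out model symbols and immunoglobulin or receptor segments. Of 936 list entries 912 were tested. The comparison, the groups of genes and the 40 lists were chosen with earlier results of these data known, so their counts are descriptions. Alternatives were DESeq2 1.42.0, limma 3.58.1 (voom with quality weights for libraries), other size factors, filters, margins and thresholds, and leaving out single libraries. Each treated bleomycin, vehicle bleomycin and saline library was left out in turn, in 15 fits. Saracatinib-treated saline libraries were not left out singly.

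Library totals were 8.81 to 17.3 M counts, and replicates were distinct libraries (chi-square per degree of freedom 4.63 to 58.8 over 40 pairs). On simulated data for treated bleomycin against saline lungs (18444 genes), edgeR recovered 52% of 1.5-fold, 84% of 2-fold and 100% of 3-fold changes with 14 false calls, and the intervals covered the true value for 95.4% of genes. Counts were drawn from edgeR's own model with its fitted spread. In the treated group 50 genes were changed at each fold, and all else was left unchanged. Such data lack the outlying libraries and many injury changes of the real groups, so these rates may not hold there.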

Additional observations from a re-analysis of the deposited data

Results flagged for a closer look

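In 34 genes described above, the highest and lowest library of each group of 5 were set against the rest by Dixon's criterion. It marked 8 of 102 groups, and chance marks about 1 in 20. In treated bleomycin lungs, Jchain stood at 233.0 CPM in library 1, against 5.697 to 37.66 CPM in the others, and Eda2r at 7.932 CPM in library 2, against 11.87 to 13.03 CPM. In vehicle bleomycin lungs Cyp1a1 was at 0.1541 CPM in library 3, against 0.9716 to 1.149 CPM.

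In saline lungs library 5 was marked for 3 genes, always as the highest. Slc7a10 of alveolar fibroblasts had 119.2 CPM there, against 74.56 to 78.16 CPM in the others, Scgb1a1 of club cells 4266 CPM, against 2749 to 2978 CPM, and Asgr1 6.177 CPM, against 1.867 to 2.315 CPM. Cyp1a1 had 150.6 CPM in saline library 4, against 3.873 to 6.041 CPM, and Kif23 10.66 CPM in saline library 1, against 11.71 to 12.12 CPM. Slc7a10, Asgr1, Eda2r and Jchain are calls of the comparison that held without the marked library. Scgb1a1 lost its call without saline library 5 (edgeR adjusted p = 0.0599).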

How the results depend on the processing

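The count of 1737 genes called between treated bleomycin lungs and saline lungs was 1764 with DESeq2 size factors (1673 shared), 1517 without a low-count filter (1403 shared) and 2285 with the DESeq2 test (1722 shared), where 59 genes were seen after treatment beside no injury call, against 28 with edgeR. Limma voom with quality weights for libraries gave 3326 calls, 1768 higher and 1558 lower, with 2886 remaining, 1766 undecided and 68 seen after treatment. By DESeq2 and by voom, 10 and 12 basement membrane genes, 12 and 9 B cell genes and 9 and 11 type 1 cell genes were higher, and 8 and 13 ciliated cell genes lower. Fitting 2 groups at a time gave 1090 lower and 1628 undecided genes. With saracatinib-treated saline lungs as the healthy group 3011 genes were called, 1542 lower and 197 over 1.5-fold, with 1293 of the 1737 among them, and 3 named genes changed sign to small values, Lpgat1 (0.0439), Vcam1 (0.100) and Sc5d (0.00847). In that setting secretory and basal airway genes had 1 higher and 10 lower, smooth muscle genes 0 and 11, and mitochondrial genes 0 and 11. Matrix glycoproteins and proteoglycans had 15 higher and 2 lower. A margin of 2-fold left 1300 genes undecided, and a narrower one of 5/4-fold left 4432 undecided and 1695 back. A threshold of 0.01 gave 673 calls (477 higher, 196 lower, 31 over 1.5-fold), 4976 injury genes, 636 remaining, 2105 back and 1 seen after treatment. Alternatives chosen after seeing the data were to leave out the 2 libraries farthest from their groups (2869 called, 1318 lower, 2489 remaining, 1737 undecided) and to keep only injury genes over 1.5-fold (757 remaining, 36 back, 731 undecided). Why these counts moved was not tested beyond what each setting itself changes.

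Libraries of the treated bleomycin, vehicle bleomycin and saline groups were left out 1 at a time. The ranges were 1009 to 2147 called, 676 to 1305 higher, 333 to 842 lower and 45 to 229 over 1.5-fold. They were 6558 to 7878 injury genes, 945 to 1904 remaining, 2708 to 3659 back, 1946 to 3187 undecided and 15 to 37 seen after treatment. The called number fell most without treated library 1 (1009) or 4 (1075). Lower calls also fell without treated library 5 (397) and saline libraries 3 (399) and 5 (351). Calls over 1.5-fold numbered 229 without treated library 2, and 45 to 66 without treated library 1 or 4 or saline library 1, 2, 3 or 5. Genes seen after treatment numbered 15 to 18 without treated library 2 or 4, saline library 3 or vehicle bleomycin library 2. Of 142 called genes that are named or counted beside a list, 69 held their call and direction in every setting tried that tests single genes, and of 78 not called 61 stayed so. Those that gained a call in some setting included Col3a1, Pmepa1, Itgav, Acta2, Timp1, Hspg2, Lama5, Macf1, Cst3, Sulf2, Bach2 and Rrm1. No paired analysis was possible because the labels give the groups no shared replicate numbers. The standard error of the difference had a median of 0.268 in undecided genes and 0.0956 in genes that were back.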
